A study of Triticum aestivum with 18 samples.

Results

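The difference between the aluminium (Al) response of a wheat line that carries rye chromosome 3R and that of its wheat background is described here. The lines are the wheat-rye addition line 3R, which holds the full bread wheat genome and a chromosome pair 3R of rye, and Chinese Spring (CS), the wheat cultivar without rye chromosomes. The members are all samples labelled 3R or CS, 12 of the 18 samples and 6 of the 9 arrays of the study. They were taken by their labels.

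The 4 groups were 3R with Al, 3R control, CS with Al and CS control, with 3 samples each that the labels call biological replicates. All seedlings grew in the same acid nutrient solution, at pH 4. Treated seedlings spent their last 24 h in that solution with 200 µM AlCl3 and control seedlings in the solution alone, and roots were taken at an age of 5 days. A sample was made of 9 root tips of 1 cm. A further addition line with the same treatments, 6R (3 arrays), served to choose probes and to estimate the spread. Each rye chromosome pair was represented by 1 line, so the chromosome and other features of its line cannot be told apart.

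Aluminium becomes soluble in acid soil and stops root elongation, and the root apex is the part of the root where it acts. Rye is among the most Al tolerant of the small grain cereals, and loci for tolerance have been mapped to several of its chromosomes, 3R among them. Known components of tolerance are transporters that release malate or citrate from the apex, where these acids bind Al. Root cells under Al also show oxidative stress, callose deposition and changes of cell wall and defence genes.

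The Al sample and the control sample of a replicate shared 1 array, in different dyes. A response is the log2 ratio of Al over control within an array, and the quantity of interest is the response of 3R minus that of CS. A positive difference means a larger rise or a smaller fall in 3R. Replicates 1 and 3 had the Al sample in Cy3 and replicate 2 had it in Hyper 5, in both lines, so a dye effect of equal size in both lines cancels in the difference. A part of any dye effect that differs between the lines remains, and with a dye term for each line (chosen after seeing the data) 582 probes passed, 485 of them shared with the 831 given below. Arrays of opposite dye orientation correlated weakly across probes, at 0.0439 and 0.162 in 3R, since the ratio also carries the dye. The SD of the ratios over all 45220 probes was 0.617 to 0.627 on the 3R arrays and 0.778 to 0.851 on the CS arrays. Slides were inferred from the start of the scanner file names in the labels. Replicates 1 and 2 of 3R lay on slide 1, those of CS on slide 2, and replicate 3 of both lines on slide 3, so the lines can be compared within a slide on slide 3 alone. The deposited table does not say which of the wheat or rye copies of a gene a probe binds. No gene that defines the root apex is named in the annotation, so the labelled tissue could not be checked that way. Genes for malate or citrate transport (the ALMT and MATE families) have no named probe.

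The response of 3R differed from that of CS at 831 of 45220 probes (1.84%, limma, Benjamini-Hochberg adjusted p under 0.05). The difference was positive at 487 of them (1.08% of all probes) and negative at 344 (0.761%). Its median size over the 831 probes was 1.32 on the log2 scale, and 578 of them differed by at least 1. Over all probes the median difference was -0.01, a value that normalization within each line holds near 0. At an unadjusted p under 0.05 there were 4822 probes, 10.7% of all. On slide 3 alone, and likewise on the mean of replicates 1 and 2, all 831 probes had the sign of the fitted difference, but these arrays are part of the fit. Median differences were 1.44 on slide 3 and 1.34 on slides 1 and 2 for the positive ones, and -1.17 and -1.28 for the negative ones. With slide as a fixed term, which leaves the slide 3 array of CS to set the CS response, 21 probes passed. The count was 129 without the dye term. Without 3R replicate 1, 2 or 3 the count was 335, 403 and 294, and without CS replicate 1, 2 or 3 it was 472, 808 and 395.

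**Figure D1:**
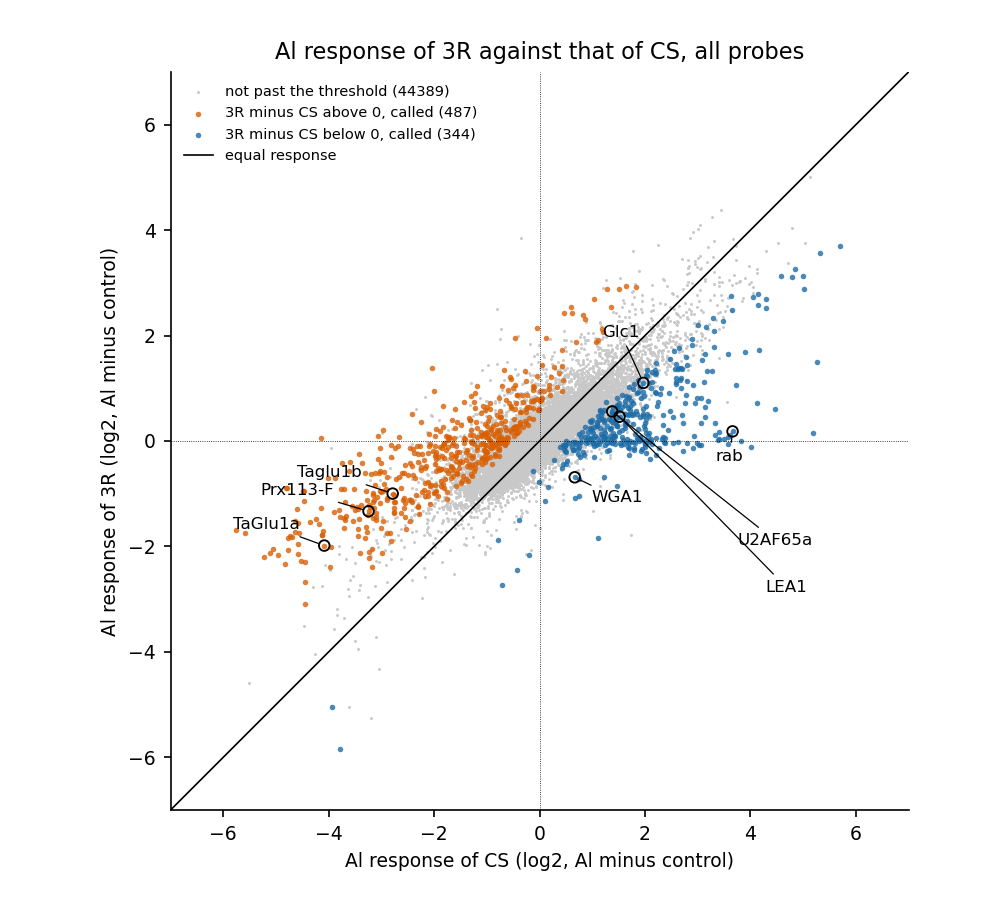
Al response of 3R (vertical axis) against that of CS (horizontal axis) for every probe, both as fitted log2 ratios of Al over control. Orange points (487) lie above the line of equal response and blue points (344) below it, and most of them lie between that line and a 3R response of 0; circles mark the 8 named genes.

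In most of these probes the Al response was smaller in 3R. Each probe was placed by what the limma test called in each line on its own. In 388 probes transcripts fell with Al in CS and fell less in 3R or were not called there. In 322 probes they rose in CS and rose less in 3R or were not called there. Together these make up 85.4% of the 831. A matching share was not counted over all probes, where the 3R ratios had the smaller SD. The remaining 121 probes included 51 that rose in 3R and were not called in CS, 29 that fell in CS and rose in 3R, and 19 that rose more in 3R. Another 10 rose in CS and fell in 3R, 7 fell in 3R and were not called in CS, and 5 fell more in 3R.

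Median responses show the size of this difference. Over the 487 positive probes the median response was -0.21 in 3R, -1.08 in 6R and -1.61 in CS. Over the 344 negative ones it was 0.25 in 3R, 1.08 in 6R and 1.72 in CS. The 3R and CS values chose these probes, so they are a description. For background, the test called a rise at 7.71% and a fall at 7.19% of all probes in 3R, at 13.7% and 13.3% in 6R, and at 11.6% and 11.4% in CS. Against the mean of CS and 6R, the response of 3R differed at 846 probes (1.87%), 488 positive and 358 negative. The contrast of 6R with CS, which shares the CS arrays, called 144 probes (0.318%).

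**Figure D2:**
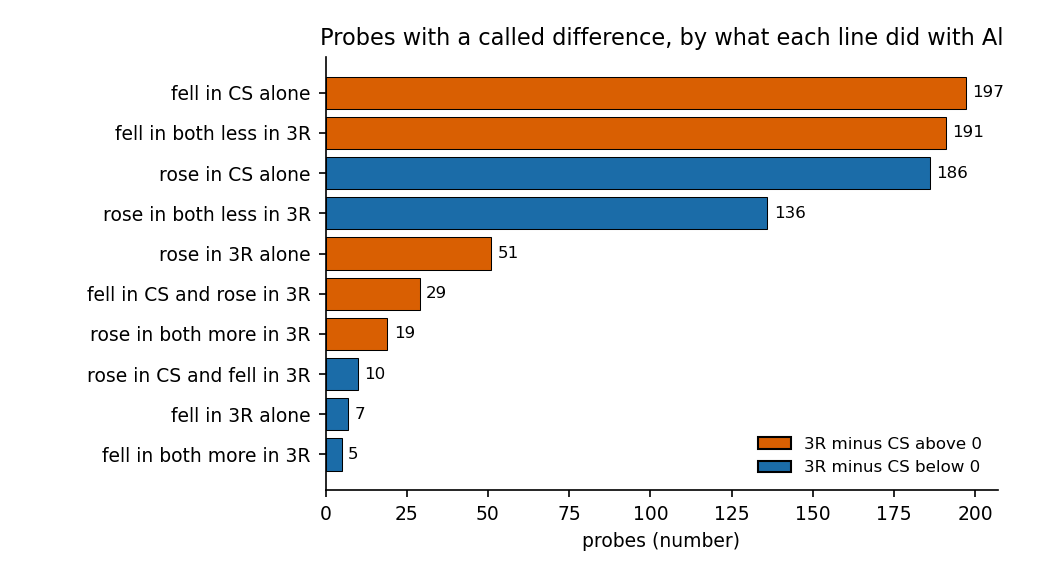
Number of probes (horizontal axis) with a called difference of responses, by the call in each line. Bars for a smaller or uncalled response in 3R are the longest 4, with 197, 191, 186 and 136 probes, and all other bars are at 51 or below.

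The levels behind the differences lay more often with the Al samples than with the control samples. A level difference between 3R and CS was called in the Al samples at 2883 of all probes (6.38%) and in the control samples at 1297 (2.87%). Of the 831 probes, 411 were called in the Al samples alone, 56 in the control samples alone, 67 in both and 297 in neither. Levels of the lines are limited, since the columns look normalized within each line (median log2 intensity 7.09 in 3R and 7.33 in CS). Of the 186 probes that rose in CS and were not called in 3R, 89 (47.8%) had means under 6.3 in both 3R groups, close to the lowest values of the table. Across all probes 38.5% lay there in 3R and 35.7% in CS. A ratio is compressed near this floor, so the size of such differences is not exact.

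Because probes chosen on CS would favour CS, the size of the response was also measured over probes chosen on the 6R arrays alone. This choice is not neutral between the lines. It leaves out probes that responded in 3R or CS alone, and 6R differed from CS at 144 probes, against 831 for 3R. A smaller mean in 3R can thus follow in part from the choice. Over 1833 probes that 6R lowered by at least 1, the mean response was -0.81, -0.98 and -0.84 on the 3R arrays, against -1.28, -1.33 and -1.53 on the CS arrays. The arrays of the lines did not overlap. With both dye orientations weighted equally, the line means were -0.90 ± 0.09 in 3R and -1.37 ± 0.13 in CS (SD, n = 3 arrays each), so 3R gave 66.1% of the CS response. The fall was smaller in 3R at 76.8% of these probes.

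Over 2107 probes that 6R raised by at least 1, the mean response was 1.06, 1.29 and 1.24 on the 3R arrays, against 1.58, 1.27 and 1.52 on the CS arrays. Here the ranges overlapped, through replicate 2 of each line. The line means were 1.22 ± 0.12 in 3R and 1.41 ± 0.16 in CS, a share of 86.5%. The rise was smaller in 3R at 63.8% of these probes. On slide 3, 3R and CS gave 1.24 and 1.52 over the raised probes and -0.84 and -1.53 over the lowered ones. Among raised probes the share depended on brightness: it was 66.9% under a mean level of 8, 85.4% from 8 to 10 and 94.3% at 10 or more. Among lowered probes it was 61.1%, 71.3% and 63.6% over the same levels.

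The dye effect gives a comparison of ratio sizes from which a response equal in all replicates cancels. In 3R and in CS, replicate 2 is the only array with Al in Hyper 5. The dye effect of a line therefore cannot be told apart from a deviating response of that replicate. Over 1420 probes brighter in Cy3 on the 6R arrays and 820 brighter in Hyper 5, the dye effect of 3R was 82.9% and 82.7% of that of CS. By this measure, with its limit through replicate 2, ratios of the 3R arrays were smaller than those of CS in dye as well as in treatment. The cause was not tested. With the 3R ratios scaled up by this measure, the mean over raised probes was 1.47 in 3R and 1.41 in CS, and the order of the lines turned. Over lowered probes it was -1.09 in 3R and -1.37 in CS, and the order stayed. The count of differing probes was then 735, with 472 positive and 263 negative. The size of the response was smaller in 3R at 73.3% of these, against 88.2% of the 831 with unscaled values. Both sets were chosen by the difference itself, and the share over all probes was not counted.

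**Figure D3:**
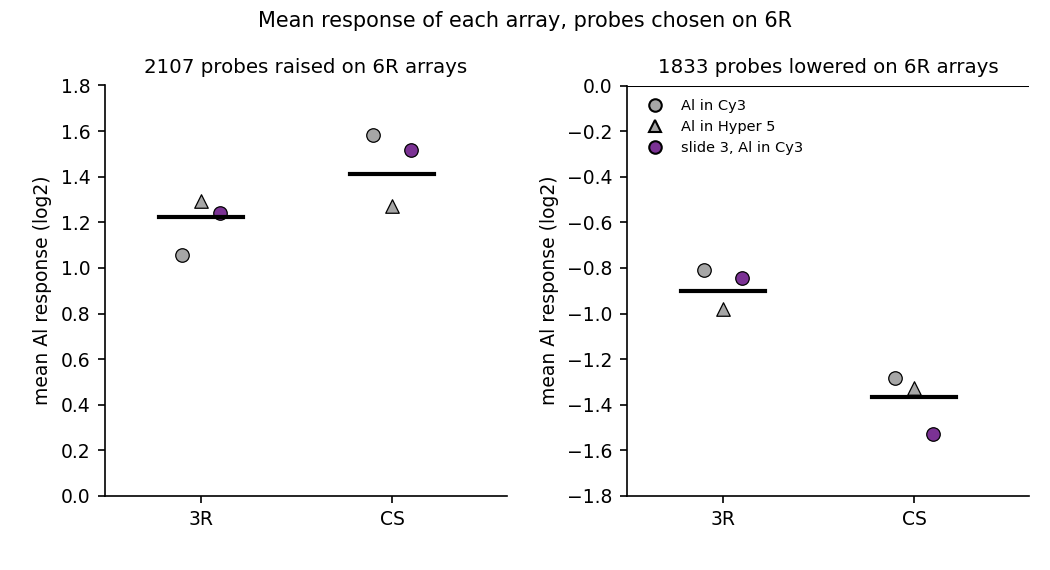
Mean Al response (log2, vertical axis) of each array of 3R and CS over probes chosen on the 6R arrays, raised on the left and lowered on the right; lines are line means with equal weight for the dye orientations, and symbols give the dye of the Al sample and slide 3. The 3R arrays overlap with those of CS in the raised set, and in the lowered set they lie at -0.98 or above while those of CS lie at -1.28 or below.

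Of the 831 probes, 28 have a gene symbol. A descriptive name was had for 11 of these, which stand for 8 genes, and 17 have a LOC number alone. TaGlu1a, Taglu1b and Prx113-F fell less in 3R than in CS. The genes rab, LEA1, Glc1 and U2AF65a rose less in 3R or were not called there, and WGA1 fell in 3R and rose in CS. Tests of the response and of the difference are those of the limma fit over all probes. Errors are standard errors (SE) of that fit, with 3 arrays per line and a spread shared by all 9 arrays. Of the 8 genes, rab alone passed with slide as a fixed term, without the dye term or without the pairing by array.

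The beta-glucosidases TaGlu1a and Taglu1b release toxic aglycones from the glucosides of benzoxazinoids, the defence compounds of cereal seedlings. All 5 probes of this list differed between the lines, with 3R above CS (1.08% of all probes did so), and the median difference was 1.94. With 3R scaled to the dye effect of CS, 4 of the 5 passed and the median was 1.50. For TaGlu1a (probe 27244) the log2 intensity was 11.90, 13.78 and 11.79 in 3R with Al and 14.51, 15.41 and 14.20 in 3R control. It was 8.68, 12.30 and 9.87 in CS with Al and 13.82, 15.52 and 14.47 in CS control. Every sample with Al lay below every control sample of its line, and replicate 2 was the highest of its group in all 4 groups. The response was -1.98 ± 0.15 in 3R and -4.08 ± 0.15 in CS, falls of 3.96-fold and 17-fold. The difference was 2.10 ± 0.21 (adjusted p = 0.0042), and the ratios of the lines did not overlap, as at 4.43% of all probes in this direction. In 6R the response was -4.49. The other 3 probes of the gene differed by 1.79 to 2.16 (adjusted p = 0.013, 0.026 and 0.036).

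Taglu1b (probe 28242) had 12.77, 14.69 and 13.16 in 3R with Al and 15.07, 14.89 and 14.86 in 3R control. CS had 10.60, 13.66 and 11.57 with Al and 14.90, 15.10 and 15.41 in control. Control samples of both lines lay together, and the samples with Al spread most within each line, with replicate 2 highest. The response was -1.0 ± 0.20 in 3R, -2.77 in 6R and -2.79 ± 0.20 in CS, and the difference of 3R and CS was 1.79 ± 0.27 (adjusted p = 0.022). Ratios of the lines overlapped across dye orientations and not within one. Taglu1b was not called without 3R replicate 1 (adjusted p = 0.093), 3R replicate 3 (0.063), CS replicate 1 (0.076) or CS replicate 3 (0.073). The control levels of the 2 genes differed between the lines by 0.10 and -0.19 (3R minus CS, adjusted p = 0.98 and 0.94).

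Prx113-F, a class III peroxidase, one of the secreted plant peroxidases, also fell less in 3R. Its probe 25823 had 10.01, 10.35 and 9.41 in 3R with Al and 12.25, 11.14 and 11.31 in 3R control, against 6.43, 9.46 and 6.52 in CS with Al and 9.98, 11.81 and 11.29 in CS control. In CS with Al, 2 samples lay close to the floor and replicate 2 well above them. The response was -1.33 ± 0.26 in 3R, -3.38 in 6R and -3.24 ± 0.26 in CS, and the difference of 3R and CS was 1.91 ± 0.36 (adjusted p = 0.047). Both other probes of the gene gave 1.84 and 1.53 and missed the threshold (adjusted p = 0.10 and 0.27). With any 1 array of 3R left out, or CS replicate 2 or 3, the adjusted p was 0.082 to 0.21, and with 3R scaled to the dye effect of CS it was 0.08.

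The genes rab and LEA1 belong to the late embryogenesis abundant proteins, hydrophilic proteins that accumulate with abscisic acid and water loss, and rab is a dehydrin among them. Of the 10 probes of this list, 2 were lower (0.761% of all probes were) and none higher, and the median difference was -0.16. For rab (probe 33139), 3R had 6.24, 6.40 and 6.16 with Al and 6.13, 6.13 and 6.05 in control. CS had 10.45, 10.72 and 10.71 with Al and 6.81, 6.98 and 7.15 in control. All 6 samples of 3R lay near the floor and below every CS sample, while in CS the groups with and without Al were far apart. The response was 0.18 ± 0.11 in 3R (adjusted p = 0.35), 0.73 in 6R (adjusted p = 0.0018) and 3.66 ± 0.11 in CS, a 12.7-fold rise.

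The difference of rab between 3R and CS was -3.48 ± 0.15 (adjusted p = 0.00028), the largest in size among genes with a descriptive name. The ratios did not overlap, as at 4.64% of all probes in this direction. The difference passed under all 18 alternatives that gave a test, at -3.50 to -3.28. Since 3R lay near the floor with and without Al, this difference is nearly the CS rise alone, and its size is not exact. The control level was lower in 3R as well, by -0.88 (adjusted p = 0.0076), and the level with Al by -4.36 (adjusted p = 1.1e-08), within the limit on levels given above. The difference of 6R and CS, which uses the same CS arrays, also passed (adjusted p = 0.0009). The other rab probe (893) lay at the floor in all 4 groups, with a difference of -0.11 (adjusted p = 0.84).

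LEA1 (probe 18101) had 7.56, 7.84 and 7.51 in 3R with Al and 7.70, 6.81 and 7.74 in 3R control. CS had 8.56, 9.48 and 8.18 with Al and 7.71, 7.19 and 7.48 in control. The CS samples with Al stood above all others. The response was 0.46 ± 0.08 in 3R, 1.00 in 6R and 1.52 ± 0.08 in CS, and the difference of 3R and CS was -1.06 ± 0.12 (adjusted p = 0.0056). The ratios of replicate 2, with the dyes turned, were the highest in both lines, so the lines overlapped across dye orientations. In 3R the sample with Al lay above its control in replicate 2 alone, so the fitted rise depends on that replicate and the dye term. Its second probe (31468), at levels of 6.32 to 6.84, gave 0.28 (adjusted p = 0.78). EM and Em, seed proteins of the same class, rose slightly in CS, by 0.36 (adjusted p = 0.019) and 0.23 (adjusted p = 0.025), and their differences were -0.17 and -0.16 (adjusted p = 0.77 and 0.60).

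Among defence proteins, 2 of 10 probes were lower (0.761% of all probes were) and none higher, with a median difference of -0.12. With 3R scaled to the dye effect of CS, 1 was lower and 1 higher. Glc1 encodes a glucan endo-1,3-beta-glucosidase, an enzyme that can degrade callose and fungal walls. Probe 8130 had 12.43, 12.79 and 12.08 in 3R with Al and 12.25, 10.77 and 11.89 in 3R control, against 13.59, 13.51 and 12.84 in CS with Al and 12.48, 10.50 and 11.98 in CS control. Controls of the lines lay together, and CS samples with Al lay above all 3R samples. Glc1 rose by 1.10 ± 0.10 in 3R, by 2.05 in 6R and by 1.97 ± 0.10 in CS, and the difference of 3R and CS was -0.87 ± 0.14 (adjusted p = 0.028). Ratios of the lines overlapped across dye orientations, with replicate 2 highest in both lines. The other probe of Glc1 gave -0.59 (adjusted p = 0.32). Leaving out any array but CS replicate 3 ended the call (adjusted p = 0.076 to 0.13), and so did scaling 3R to the dye effect of CS (0.10).

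WGA1 encodes a wheat germ agglutinin, a lectin that binds chitin. It had 10.70, 10.74 and 11.22 in 3R with Al and 11.46, 11.63 and 11.61 in 3R control, against 12.82, 12.03 and 12.68 in CS with Al and 12.30, 11.07 and 12.14 in CS control. In 3R all samples with Al lay below all controls, and in CS the groups overlapped although each array gave a positive ratio. WGA1 fell by 0.69 in 3R (response -0.69 ± 0.17, adjusted p = 0.033) and rose by 0.67 ± 0.17 in CS (adjusted p = 0.026). In 6R it fell as in 3R (response -0.67, adjusted p = 0.022). The difference of 3R and CS was -1.36 ± 0.24 (adjusted p = 0.035) and the ratios did not overlap. On slide 3 it was -0.93, and without any 1 of the 6 arrays the adjusted p was 0.077 to 0.16. WGA2, chosen after its values were seen, gave -0.91 (adjusted p = 0.41).

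PR5, a thaumatin-like protein of the pathogenesis-related class, rose in both lines. It had 11.61, 12.11 and 11.71 in 3R with Al and 8.11, 7.43 and 7.83 in 3R control, against 9.90, 11.21 and 10.82 in CS with Al and 7.23, 7.87 and 7.94 in CS control. Samples with Al and controls were far apart in both lines, and the 3R samples with Al lay above those of CS. The response was 4.09 ± 0.20 in 3R, 3.83 in 6R and 3.04 ± 0.20 in CS, and the difference of 3R and CS was 1.06 ± 0.28 (adjusted p = 0.15). It passed in 2 of 18 alternatives, the fit of the 6 arrays alone (adjusted p = 0.04) and 3R scaled to the dye effect of CS (1.89, adjusted p = 0.027). The chitinase gene cbp2 rose by 1.00 in 3R and by 0.74 in CS, with a difference of 0.26 (adjusted p = 0.84).

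U2AF65a, the large subunit of the factor that recognises the 3′ splice site, was the 1 of 21 probes for splicing and translation that differed. It had 7.17, 7.74 and 7.23 in 3R with Al and 7.01, 6.81 and 7.14 in 3R control, against 8.0, 8.89 and 8.58 in CS with Al and 7.43, 6.92 and 7.48 in CS control. The CS samples with Al lay above all others. It rose by 0.56 ± 0.11 in 3R, by 1.35 in 6R and by 1.38 ± 0.11 in CS, and the difference of 3R and CS was -0.82 ± 0.15 (adjusted p = 0.043). The call was lost without any 1 array except CS replicate 1 (adjusted p = 0.11 to 0.19), in the fit of the 6 arrays alone (0.097) and with 3R scaled (0.055). Ratios of the lines overlapped across dye orientations, with replicate 2 highest in both lines. The median difference of the 21 probes was 0.05. Of translation factors, TEF1 gave 0.46 (adjusted p = 0.39) and eIF-2-beta 0.23 (adjusted p = 0.87).

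**Figure D4:**
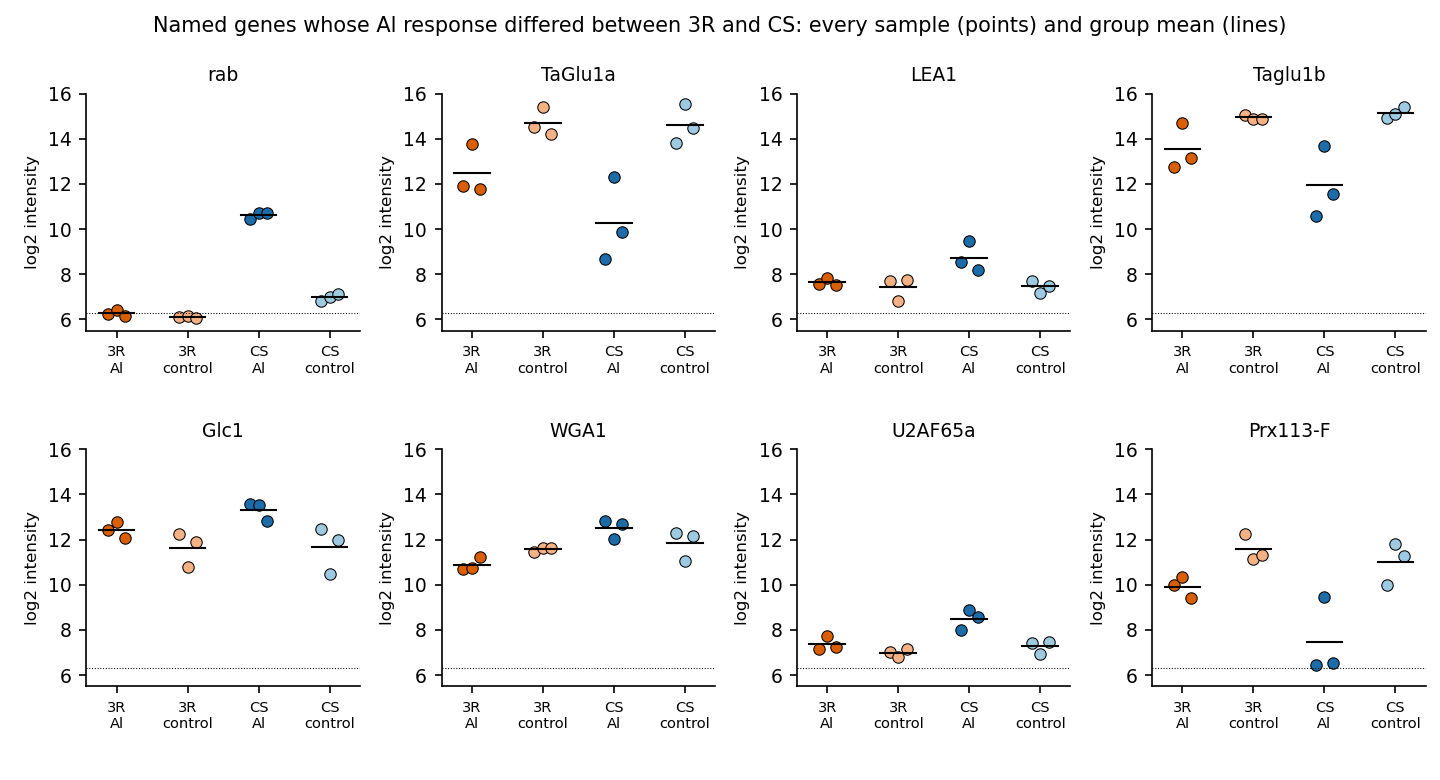
Log2 intensity (vertical axis) of each sample for the 8 named genes whose response differed, with group means as lines and the floor of 6.3 dotted. The rab panel shows the 3R groups at the floor and CS with Al above 10, and the panels of both glucosidases show CS with Al as the lowest group.

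The remaining gene lists held few or no calls. Of 15 lists, the 10 without a call held 167 probes, of which 23 had an unadjusted p under 0.05, where the share over all probes was 10.7%. Beside the 15 lists, none of 7 serpin probes passed, nor did any have an unadjusted p under 0.05. Gibberellin synthesis was one of the 10, with a median difference of 0.52 over 5 probes. All 3 named 20-oxidase genes had a probe that fell in both lines: GA20ox1a by 0.83 in 3R and 1.56 in CS, GA20ox1d by 1.50 and 2.11, and GA20ox1b by 1.14 and 1.66. Their differences of 0.73, 0.61 and 0.52 did not pass (adjusted p = 0.34, 0.69 and 0.77). That of GA20ox1a passed in 1 of 18 alternatives, the fit of the 6 arrays (0.037). Means of the 3 probes with Al lay at 6.14 to 6.80 in 3R and 6.15 to 6.33 in CS, near the floor. On the other side lay a second probe of GA20ox1a (20802), with -0.76 in 3R, 0.04 in CS and a difference of -0.80 (adjusted p = 0.51), the largest in size of the list. This probe was chosen after its values were seen. GA3ox2-2, which makes the active hormone, also lay there, with -1.11 in 3R, -0.51 in CS and a difference of -0.60 (adjusted p = 0.23).

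Beta-tubulin genes encode microtubule subunits and are high in growing root tips. Of their 14 probes 5 fell in 3R and 12 in CS, where 7.19% and 11.4% of all probes fell. For the difference 7 had an unadjusted p under 0.05, as had 10.7% of all probes. The nearest to the threshold was tubb3, with -0.89 in 3R, -0.39 in CS and a difference of -0.50 (adjusted p = 0.051). It passed in 2 of 18 alternatives, with slide as a random block (0.045) and with 3R scaled (0.03). The genes tubb2 and tubb1 differed the other way, by 0.55 (adjusted p = 0.10) and 0.52 (adjusted p = 0.14), and Tubb4 by -0.29 (adjusted p = 0.69). The list thus held members on both sides, with a median of 0.13.

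Catalase wcat1, which removes hydrogen peroxide, rose by 1.64 in 3R and by 1.71 in CS, a difference of -0.08 ± 0.23 (adjusted p = 0.98) whose sign turned when all columns were normalized together or 3R was scaled to the dye effect of CS. Of 7 probes for metal chelation genes none passed, and none had an unadjusted p under 0.05. Their median difference was -0.22. The phytochelatin synthase gene PCS1 gave 0.33 in 3R and 0.58 in CS (difference -0.25, adjusted p = 0.71), and the metallothionein-like wali1 gave 1.06 in 3R and 0.80 in CS (difference 0.26 ± 0.37, adjusted p = 0.93). TaDMAS1, for synthesis of the iron chelator deoxymugineic acid, gave -0.54 in 3R and 0.40 in CS at probe 41405 (difference -0.94 ± 0.43, adjusted p = 0.51), the largest in size of the list. Its other probe (18395) gave -0.84 in 3R and -1.06 in CS (difference 0.23, adjusted p = 0.94), and the sign turned with 3R scaled.

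The 23 probes of the methyl cycle and lignin had a median difference of -0.0050 and lay on both sides. The methionine adenosyltransferase gene SAMS gave 0.18 in 3R and 0.61 in CS (difference -0.43, adjusted p = 0.22). COMT1, which methylates lignin precursors, rose by 0.88 in 3R and by 1.20 in CS, with a difference of -0.32 (adjusted p = 0.83). At probe 32872, WPEAMT, a phosphoethanolamine methyltransferase, gave -0.06 in 3R and fell by 0.59 in CS, with a difference of 0.53 (adjusted p = 0.29). Among 8 probes for chaperones, the protein disulfide isomerase gene PDI gave -0.19 in 3R and -0.91 in CS. Its difference of 0.72 missed the threshold (adjusted p = 0.14) and passed in 1 of 18 alternatives, without CS replicate 2 (0.99, adjusted p = 0.013). In starch and sugar metabolism, the amylase gene amy1 fell by 0.72 in 3R and by 1.63 in CS (difference 0.90, adjusted p = 0.13), and PMM, a phosphomannomutase, fell by 0.69 and 1.09 (difference 0.40, adjusted p = 0.53). The 5 probes of the plasma membrane proton pump gene ha1 had differences of -0.34 to -0.15.

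Lists for other tissues or cell states did not separate the lines by the test. None of 33 photosynthesis probes, 40 seed storage probes and 6 histone probes passed, and 4, 1 and 1 of them had an unadjusted p under 0.05. Their median differences were -0.06, -0.03 and 0.14. Those of smallest p were the photosystem II genes PsbP and PsbO, whose probes gave 0.08 and -0.43 in 3R, -0.73 and -1.15 in CS, and differences of 0.81 and 0.73 (adjusted p = 0.16 each).

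**Figure D5:**
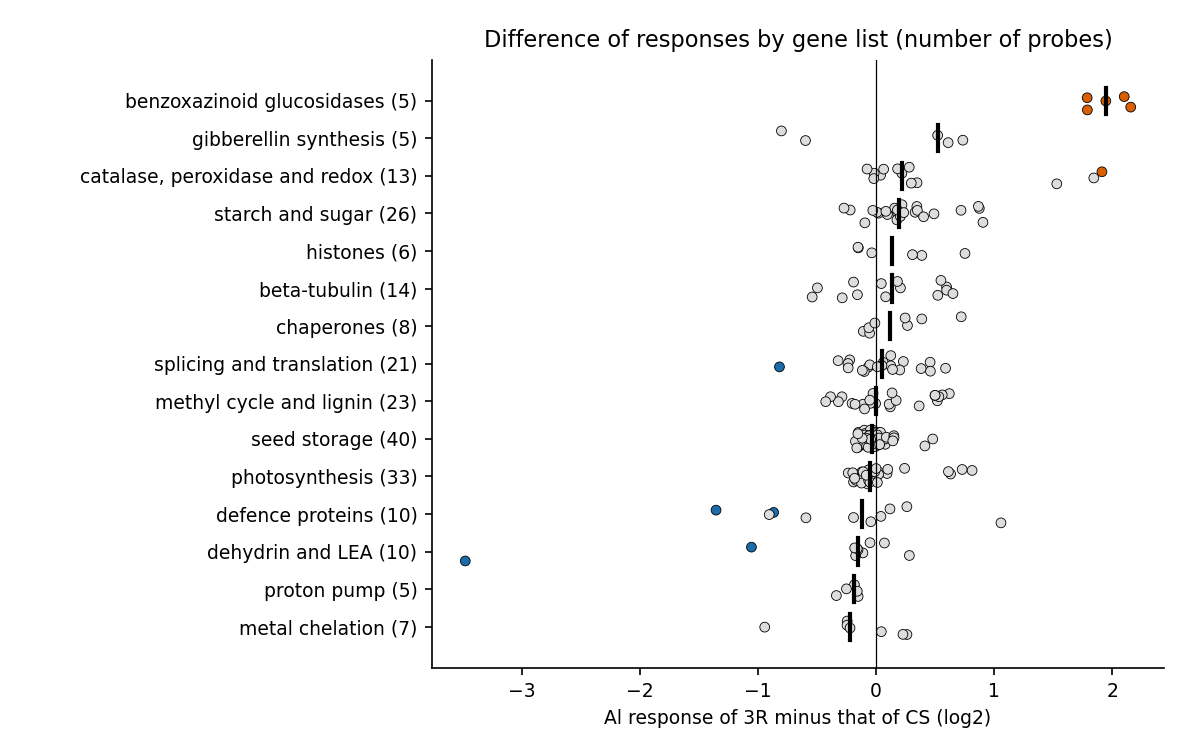
Difference of Al responses, 3R minus CS (log2, horizontal axis), of each probe of 15 gene lists, with the median of a list as a bar and called probes in orange (positive) or blue (negative). All 5 glucosidase probes lie between 1.79 and 2.16, and every other list holds at most 2 called probes.

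Of genes known by a LOC number alone, 13 probes were positive and 4 negative among 716, where 1.08% and 0.761% of all probes were. LOC542888 repeated the pattern of rab. It had 6.35, 6.23 and 6.39 in 3R with Al and 6.13, 6.15 and 6.50 in 3R control, against 11.62, 10.27 and 10.75 in CS with Al and 7.45, 6.62 and 6.96 in CS control. The 3R samples stayed near the floor in both groups, whereas the CS groups were far apart. The response was 0.01 in 3R, 0.58 in 6R and 3.82 in CS, and the difference of 3R and CS was -3.81 ± 0.29 (adjusted p = 0.0013). It passed in 17 of 18 alternatives, and as at rab the difference is nearly the CS rise alone. LOC100037571 and LOC100192181 gave differences of -0.80 (adjusted p = 0.015) and -0.56 (adjusted p = 0.046).

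LOC100136980 fell less in 3R, with 11.63, 13.97 and 12.04 in 3R with Al and 14.09, 14.84 and 14.29 in 3R control, against 8.97, 10.73 and 8.69 in CS with Al and 14.34, 13.56 and 14.38 in CS control. Controls of the lines overlapped and samples with Al did not. The response was -1.47 in 3R, -4.18 in 6R and -4.25 in CS, and the difference of 3R and CS was 2.78 ± 0.31 (adjusted p = 0.0058), past the threshold in 15 of 18 alternatives. LOC100136978 differed at all 3 of its probes, by 1.65, 1.71 and 1.72 (adjusted p = 0.018, 0.026 and 0.044). At its probe 34763 the CS response was -1.33 and the 3R response 0.39 (adjusted p = 0.36). LOC543140 fell less in 3R, by 1.51 against 2.45 in CS (difference 0.94, adjusted p = 0.023). LOC543072 fell by 0.84 in CS, whereas 3R gave -0.25 (adjusted p = 0.065), and the difference was 0.58 (adjusted p = 0.04).

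In the other direction of response, LOC606391 had 8.28, 7.33 and 7.50 in 3R with Al and 6.76, 5.99 and 6.39 in 3R control, against 6.94, 6.61 and 6.58 in CS with Al and 6.89, 7.74 and 6.85 in CS control. It rose by 1.21 in 3R (adjusted p = 0.0058), whereas CS gave -0.57 (adjusted p = 0.077), and the difference was 1.78 ± 0.27 (adjusted p = 0.021). LOC778394 rose by 2.32 in 3R, 2.14 in 6R and 0.86 in CS (difference of 3R and CS 1.45, adjusted p = 0.031). These counts of passes varied, at 11 of 18 alternatives for LOC606391 and 1 of 18 for LOC100192181.

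Over all probes the difference ran from -5.04 to 4.21. Probes without a gene name are given by the largest differences in each direction among those with a mean level of at least 6.3 in Al or control samples of each line. Probe 6129 had 10.69, 11.57 and 11.62 in 3R with Al and 12.95, 13.25 and 13.50 in 3R control, against 7.01, 7.92 and 6.37 in CS with Al and 13.93, 12.38 and 12.98 in CS control. Controls overlapped, and CS with Al was more than 2 log2 units below 3R with Al. The response was -1.69 in 3R, -5.54 in 6R and -5.75 in CS, and the difference of 3R and CS was 4.06 ± 0.36 (adjusted p = 0.0024). Probe 5987 differed by 3.91 ± 0.26 (adjusted p = 0.00072), with -0.89 in 3R and -4.80 in CS. Of those in the other direction, probe 16576 differed by -3.86 ± 0.20 (adjusted p = 0.00032), with 0.61 in 3R, 4.38 in 6R and 4.47 in CS, and probe 10398 by -3.76 ± 0.30 (adjusted p = 0.0016), with 1.50 in 3R, 4.74 in 6R and 5.26 in CS. In these 4 probes the response of 6R lay closer to that of CS than to that of 3R.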

How the data were processed

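Values are log2 intensities as deposited, 1 column per sample, made by the authors with limma per the submitters' processing notes. How background was corrected and arrays were normalized is not stated in the labels or headers. Sorted values differ by at most 0.00641 within a line and by up to 0.355 between a 3R and a CS column, as after quantile normalization within each line. Within-array log2 ratios of Al over control were fitted in limma 3.58.1 (R 4.3.3) on all 9 arrays, with line means and a shared dye term (5 residual degrees of freedom, prior 2.61), with Benjamini-Hochberg adjustment over 45220 probes and a threshold of 0.05. Fits were tested on simulated data. Levels were fitted per channel with the array as a random block (correlation 0.625). The pairing comes from the shared array: residuals of its samples correlated at 0.722 to 0.855. The platform annotation names 996 probes (553 symbols), and a RefSeq gene table (assembly GCF_018294505.1) gave names for 280. Named were all genes with a descriptive name past the threshold, the 10 of smallest p short of it, up to 6 LOC numbers and 2 unnamed probes in each direction, and up to 4 genes of smallest p of each list, not all of which the text gives. A further 8 list probes, the smallest in p among those with a called response in 3R or CS, were added after their values were seen. The comparison, lists and genes were chosen with earlier results of these data known. The labels call the samples biological replicates and do not say how plants were divided among them, so p-values measure the spread between these samples, and the 3 arrays a line limit precision. Alternatives changed the dye term, blocks, normalization, filter, prior and arrays. No other columns were left out.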

Additional observations from a re-analysis of the deposited data

Results flagged for a closer look

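At 8 genes with a descriptive name, the test of the difference of Al responses between 3R and CS itself passed (limma, Benjamini-Hochberg adjusted p under 0.05 over all probes, 3 arrays a line). Higher in 3R, through a smaller fall, were TaGlu1a with 2.10 (adjusted p = 0.0042), Prx113-F with 1.91 (adjusted p = 0.047) and Taglu1b with 1.79 (adjusted p = 0.022). Lower in 3R were rab with -3.48 (adjusted p = 0.00028), LEA1 with -1.06 (adjusted p = 0.0056), Glc1 with -0.87 (adjusted p = 0.028), WGA1 with -1.36 (adjusted p = 0.035) and U2AF65a with -0.82 (adjusted p = 0.043). In each of the 8, every 3R array lay on the side of the difference when set against the CS arrays of the same dye orientation. The same arrays chose these genes, so this is a description and no further support. No group was tested for outlying samples, since each holds 3.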

How the results depend on the processing

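Of 18 alternatives with a test, rab passed in 18, TaGlu1a and LEA1 in 15, Taglu1b in 11, Glc1 and WGA1 in 7, and U2AF65a and Prx113-F in 5, with none of the 8 changing sign. The count of differing probes was 831. It was 129 without a dye term and 122 with no replicate block (42 higher, 80 lower, the array left unused). With a replicate block across lines in the 6 arrays of 3R and CS it was 611, against 940 in these without it. Same-numbered arrays of 3R and CS had residual correlations of -0.189, -0.544 and 0.134. The shared dye term makes residuals of the arrays with Al in Hyper 5 cancel across lines. These correlations therefore cannot tell whether the numbers pair the lines. The count was 21 with slide as a fixed block, and 1352 at an adjusted p under 0.10. Without 1 array it was 294 (3R replicate 3) to 808 (CS replicate 2), at 335 and 403 without 3R replicates 1 and 2 and 472 and 395 without CS replicates 1 and 3. Other alternatives gave 578 to 1078. Terms for the dye of each line and the scaling of 3R were chosen after seeing the data. Against the mean of CS and 6R, the count of 846 became 136 without a dye term, 103 with no replicate block and 217 to 385 without 1 array of 3R. Over 6R-raised probes the means became 2.07 in 3R and 2.39 in CS at a 6R response of at least 2, 1.47 in 3R when scaled and 0.85 in 3R under a level of 8. Over lowered probes they became -1.55 in 3R and -2.72 in CS, -1.09 in 3R and -0.81 in 3R. Without 1 array, raised probes gave 1.15 to 1.27 in 3R and 1.40 to 1.55 in CS, and lowered ones -0.91 to -0.83 in 3R and -1.43 to -1.30 in CS. Signs turned only among genes that missed the threshold: Eif4B 0.16, Trx-M -0.050, H2A-9 0.21, ha1 0.45 and wali1 -0.33 with slide fixed, wcat1 0.012 with common quantiles, wcat1 0.21, PIMT 0.057 and TaDMAS1 -0.041 with 3R scaled. Without 1 array, Trx-H ranged over -0.038 to 0.33, wali1 -0.30 to 0.47, wcat1 -0.18 to 0.18, PIMT -0.22 to 0.0091 ATI -0.13 to 0.053, Trx-M -0.021 to 0.12, pre-FBPase -0.17 to 0.016, H2A-9 -0.34 to 0.067 and ha1 -0.79 to 0.22. The cause was not tested. A count on slide 3 alone could not be had with 1 array a line.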

Other observations

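A further 6 genes known by a LOC number alone passed with 1 probe each, with ratios of the lines that overlapped across dye orientations, and were chosen after their values were seen. LOC606353 and LOC543148 fell in both lines, by 1.03 and 0.85 in 3R and by 2.76 and 2.09 in CS, with differences of 1.73 ± 0.25 and 1.23 ± 0.15 (SE, limma, adjusted p = 0.016 and 0.0082). LOC542924 rose by 1.92 in 3R, 1.22 in 6R and 1.10 in CS, a difference of 3R and CS of 0.81 ± 0.11 (adjusted p = 0.013). LOC100038340 rose by 0.61 in 3R, whereas CS gave -0.25 (adjusted p = 0.10), and the difference was 0.86 (adjusted p = 0.021). LOC100192161 fell by 0.81 in CS, whereas 3R gave 0.21 (adjusted p = 0.31), and LOC606367 rose by 0.73 in CS, whereas 3R gave -0.24 (adjusted p = 0.20). Their differences were 1.02 (adjusted p = 0.023) and -0.98 (adjusted p = 0.021). With the probes named above, these account for all 17 LOC probes that passed.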
